A study of Mus musculus with 8 samples.

Results

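The genes described here are 9 mouse genes of DNA double-strand break repair: Mre11a, Rad50, Nbn, Atm, Atr, Prkdc, Trp53bp1, Brca1 and Brca2. Members were all array probes whose gene name in the per-array files was one of these names. Probes were found for 8 of the 9 genes, 17 of the 41174 probes on the array, and 13 of the 17 were bright enough to be tested. No probe carried the name Atr, so this kinase has no value below.

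The RNA came from Dazl-GFP, a re-derived mouse embryonic stem (ES) cell line that carries a transgene. All groups share this line and its culture: irradiated feeder fibroblasts, DMEM medium with 15% serum, leukemia inhibitory factor and the inhibitor pair 2i, that is, 1 µM of the MEK inhibitor PD0325901 and 3 µM of the GSK3β inhibitor CHIR99021. The 3 groups were 3 arrays of input (RNA with no antibody step), 3 arrays of RNA recovered with an anti-GFP antibody (GFP IP) and 2 arrays of RNA recovered with an anti-PABP1 antibody (PABP1 IP), each from a native immunoprecipitation, which uses no crosslinking. The study asked which RNAs are bound to DAZL, a germ-cell RNA-binding protein; PABP1 is the poly(A) binding protein that coats the tails of most mRNAs. The labels name 1 cell line and give neither the promoter of the transgene nor whether GFP is joined to DAZL. Nor do they tie the arrays to separate cultures, so the p-values rest on a spread between samples that may be technical. No IP with a control antibody and no line without the transgene were analysed here.

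A double-strand break is first bound by the MRN complex, which Mre11a, Rad50 and Nbn encode. MRN brings in the kinase ATM, while ATR answers single-stranded DNA at resected ends and DNA-PKcs, the product of Prkdc, sits on Ku-bound ends and promotes their direct joining. TRP53BP1 shields ends from resection and favours joining, and BRCA1 and BRCA2 favour repair by homologous recombination. Mouse ES cells divide fast and are known to rely on homologous recombination more than most somatic cells do.

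Levels are log2 of the processed signal, less the 75th percentile of the same array, and a difference between groups is a difference of group means on that scale with limma's standard error (SE). A difference therefore compares the share that an mRNA takes of each RNA sample, not an absolute amount. On each array 41.5% to 52.6% of the 43379 probe spots were well above background, and a probe was tested if it was so on every array of at least 1 group. Dazl itself was higher in the GFP IP than in input by 3.81 ± 0.21 (SE, limma, adjusted p = 2.18e-05). The other genes set as controls of the IPs did not pass the threshold of 0.05 in that comparison. They were Tet1 (−0.0026, limma, adjusted p = 0.993), Tet2 (0.28, 0.0721) and Pabpc1 (−0.86, 0.247). Of 14 ES cell markers 13 were tested, all well above background on every array. The sum of their linear levels was 2283 to 4221 in inputs, 2049 to 3952 in PABP1 IPs and 1540 to 2048 in GFP IPs. Their median log2 level was 3.56 to 3.93, 3.17 to 3.37 and 4.32 to 4.64 in the same order. Of 20 feeder fibroblast markers 19 were tested. The sum of their linear levels was 152 to 204 in inputs, 258 to 276 in PABP1 IPs and 58.8 to 89.2 in GFP IPs. Their median log2 level was 0.90 to 1.33 in inputs, 0.96 to 1.01 in PABP1 IPs and 0.02 to 0.46 in GFP IPs. Feeder RNA was thus present, and it was lower in the GFP IPs by both measures. In the PABP1 IPs the sum was higher than in inputs but the median level was not. Single markers went both ways in each IP, but unevenly. In the GFP IP over input 2 were called higher and 14 lower (limma, background over all tested genes 21.2% and 43.4%). In the PABP1 IP over input 9 were called higher and 2 lower (34.3% and 25.3%). The median difference of the markers there was 0.66, against 0.24 over all tested genes. The part of feeder RNA in the results below was not tested. The IP levels are shares of the RNA that an antibody recovered. They cannot tell the number of feeder cells, the RNA per cell and the recovery by the antibody apart. Of 7 primitive endoderm markers 4 were tested, and 0 of them were well above background on all 8 arrays.

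As a group, the repair mRNAs were poor in the PABP1 IP and nearer to their input share in the GFP IP. Of the 13 tested probes 8 were lower in the PABP1 IP than in input, 0 were higher and 5 did not pass the threshold, where 25.9% of all 20625 tested probes were lower and 34.5% higher. Their median difference was −1.26, against 0.22 over all tested probes, and the values ran from −2.73 to 0.01. In the GFP IP over input, 7 were lower and 2 higher (background 39.1% and 24.2%), with a median of −0.67 against −0.38. In the GFP IP over the PABP1 IP, 9 were higher and 2 lower (background 26.6% and 43.7%), with a median of 1.08 against −0.52. The 3 comparisons share arrays, so they are not independent of each other. Groups did not overlap for 10 of the 13 probes between PABP1 IP and input (background 71.2% in either direction), for 9 between GFP IP and input (68.3%) and for 12 between the IPs (80.3%). The separation of the groups was thus near the background, and it was the direction of the differences that was uneven. Of the 13 probes, 10 were well above background on all 8 arrays; the other 3, the dim probes of Atm, Brca1 and Trp53bp1, passed the filter only through the GFP IP, so their excess there over the PABP1 IP or over input, which includes 1 of the 2 probes higher in the GFP IP than in input, is no support for the counts. In a fit over the probes well above background on all arrays, those 10 gave 7 lower and 0 higher in the PABP1 IP over input. The background in that fit was 29.5% and 38.9%. In the GFP IP over input they gave 7 lower and 1 higher (background 46.2% and 25.2%). Between the IPs they gave 6 higher and 3 lower (27.2% and 48.3%). With slide as a block, over all 13 probes, 11 were lower in the PABP1 IP over input and 3 were lower between the IPs. The background in that fit was 31.1% and 51.3%. The other counts were as for the 13 probes above. Their background was 42.5% higher in the PABP1 IP over input and 30% higher between the IPs. In the GFP IP over input it was 46.2% lower and 27.5% higher. The normexp background correction left fewer calls among the members and among all probes. In the PABP1 IP over input 4 were lower, where 4.69% of all tested probes were. In the GFP IP over input 3 were lower and 0 higher (5.52% and 4.19%). Between the IPs 1 was higher and 1 lower (7.84% and 18.6%).

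**Figure D1:**
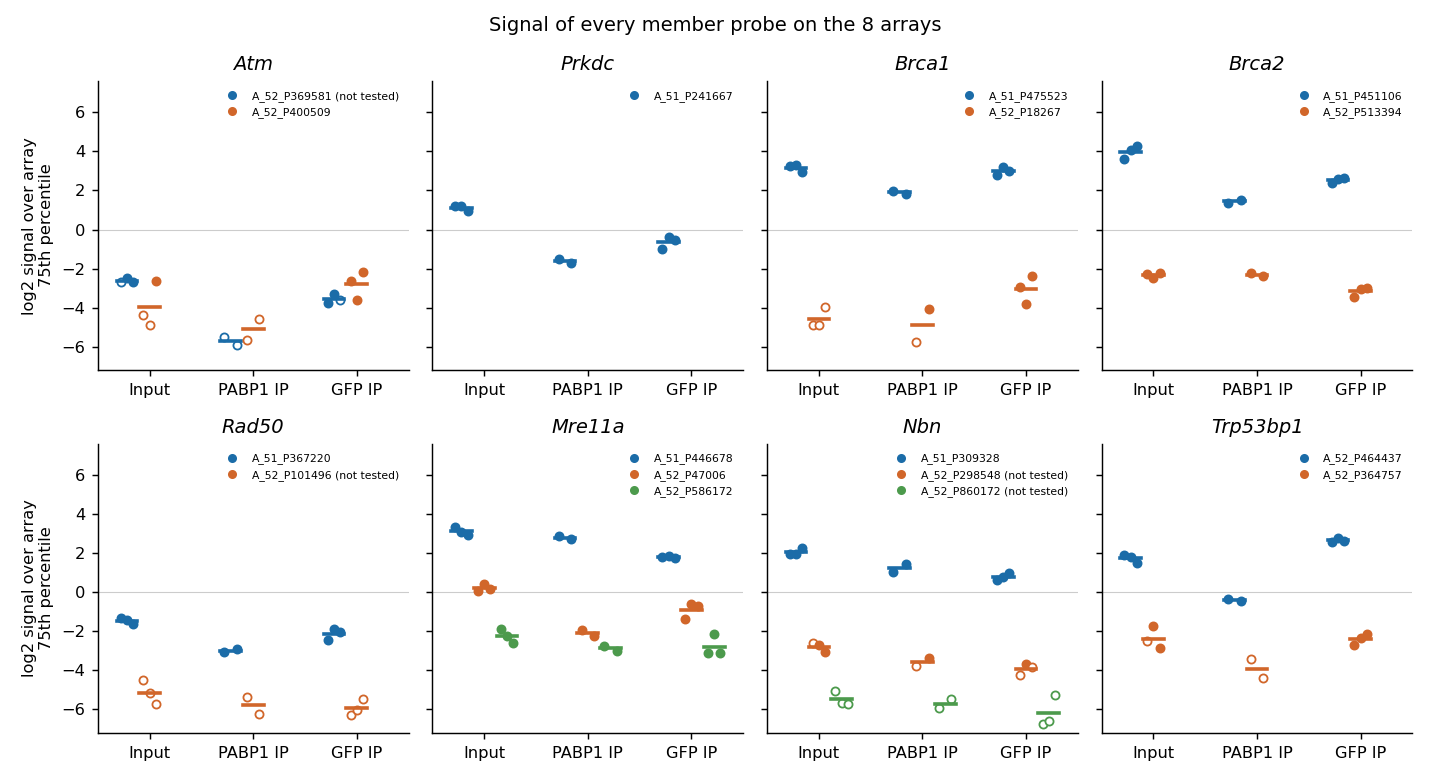
Signal of all 17 member probes on the 8 arrays, as log2 over the array's 75th percentile (vertical axis), by group (horizontal axis). Each point is 1 array, filled where the probe was well above background and open where it was not; short bars are group means; colours separate the probes of a gene. The main probes of Prkdc, Brca2 and Trp53bp1 were lower in both PABP1 IPs than in every input, and only the main Trp53bp1 probe among these was higher in the GFP IPs than in every input.

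The 3 genes of the MRN complex did not share 1 pattern. Mre11a, the nuclease of the complex, has 3 tested probes. Its brightest, A_51_P446678, read 3.33, 3.09 and 2.92 in the inputs, 2.85 and 2.70 in the PABP1 IPs and 1.79, 1.86 and 1.76 in the GFP IPs. The GFP IPs lay below all other arrays, while the PABP1 IPs lay just below the inputs. The GFP IP was lower than input (−1.31 ± 0.14 SE; limma, adjusted p = 0.000204) and lower than the PABP1 IP (−0.97 ± 0.16; adjusted p = 0.00105). The fall in the GFP IP over input ended with normexp (−1.15, adjusted p = 0.0508). The PABP1 IP differed from input by −0.33 (95% confidence interval −0.70 to 0.03; adjusted p = 0.1), which did not pass the threshold but passed it under 3 of the alternatives (adjusted p = 0.0113 with quantile normalization, 0.00797 with scaling over detected probes and 0.047 with slide as a block).

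A different picture came from A_52_P47006, which the array ties to Mre11a through the cDNA clone AK161013. It read 0.04, 0.41 and 0.17 in the inputs, −1.95 and −2.26 in the PABP1 IPs and −1.38, −0.62 and −0.70 in the GFP IPs. Here the 3 groups were in separate ranges, with PABP1 IPs lowest. The difference was −2.31 ± 0.26 for the PABP1 IP over input (limma, adjusted p = 0.00023), −1.11 ± 0.23 for the GFP IP over input (adjusted p = 0.0045) and 1.21 ± 0.26 between the IPs (adjusted p = 0.00438). With normexp the latter 2 calls ended (adjusted p = 0.309 and 0.222). The brightest probe and this one thus passed the threshold in opposite directions between the IPs. The remaining probe, A_52_P586172, is dim and passed in no comparison, with differences of −0.54, −0.61 and 0.08. Which part of the gene each probe covers was not analysed here.

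Rad50, the ATPase that tethers DNA ends, has 1 tested probe, A_51_P367220. It read −1.32, −1.41 and −1.62 in the inputs, −3.07 and −2.90 in the PABP1 IPs and −2.46, −1.88 and −2.03 in the GFP IPs. All 3 groups were apart, in the order input, GFP IP, PABP1 IP. The PABP1 IP was lower than input (−1.54 ± 0.20; limma, adjusted p = 0.000488) and lower than the GFP IP (the GFP IP over it, 0.87 ± 0.20; adjusted p = 0.00644), although within slide 2 the latter fell to 0.66 (adjusted p = 0.0831). The fall in the GFP IP over input (−0.67 ± 0.18; adjusted p = 0.0138) did not hold throughout: the call ended with median scaling (−0.14, adjusted p = 0.546), with quantile normalization (adjusted p = 0.0541) and within each slide (−0.51 and −0.63, adjusted p = 0.0815 and 0.107). With normexp all 3 Rad50 calls ended, in the order given (−0.62, 0.38 and −0.24; adjusted p = 0.316, 0.545 and 0.793). The other Rad50 probe, A_52_P101496, was well above background on no array.

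Nbn, which links the complex to ATM, has 1 tested probe of 3. Probe A_51_P309328 read 1.97, 1.94 and 2.25 in the inputs, 1.03 and 1.43 in the PABP1 IPs and 0.65, 0.77 and 0.97 in the GFP IPs. Both IPs lay below all inputs, and the GFP IPs lay below the PABP1 IPs. The GFP IP over input gave −1.26 ± 0.16 (limma, adjusted p = 0.000519). The PABP1 IP over input gave −0.82 ± 0.18 (adjusted p = 0.00654), a call that ended with median scaling (adjusted p = 0.0588), with normexp (adjusted p = 0.335), within slide 2 (adjusted p = 0.0616) and without PABP1 IP replicate 1 (−0.62, adjusted p = 0.0533). The difference of −0.44 between the IPs did not pass (95% interval −0.87 to −0.01; adjusted p = 0.0658), though it passed with slide as a block (adjusted p = 0.0166) and over probes well above background on all arrays (adjusted p = 0.049). Of the other Nbn probes, A_52_P298548 was too often below the background limit to be tested, and A_52_P860172 was well above background on no array.

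Among the kinases, Prkdc had the largest fall of all 13 tested probes in both IPs. Its probe A_51_P241667 stands on 10 spots per array, well above background on all 8 arrays. The inputs read 1.20, 1.23 and 0.94, the PABP1 IPs −1.52 and −1.70, and the GFP IPs −1.02, −0.37 and −0.51. The groups were well apart, with every IP array over 1 log2 unit below every input. The difference was −2.73 ± 0.22 in the PABP1 IP over input (limma, adjusted p = 5.69e-05), which only 3.45% of tested probes undercut or equalled, and −1.76 ± 0.19 in the GFP IP over input (adjusted p = 0.000239). Between the IPs the GFP IP was higher by 0.97 ± 0.22 (adjusted p = 0.00527), a call that ended with normexp (0.52, adjusted p = 0.219), while both falls from input held there. The differences within slides 1 and 2 were −2.73 and −2.63 for the PABP1 IP and −1.58 and −1.71 for the GFP IP.

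Atm, the kinase that MRN activates, was dim. Its RefSeq probe A_52_P369581, also with 10 spots per array, read −2.71, −2.49 and −2.70 in the inputs, −5.50 and −5.90 in the PABP1 IPs and −3.78, −3.28 and −3.59 in the GFP IPs. It was well above background in 2 of 3 inputs, 2 of 3 GFP IPs and 0 of 2 PABP1 IPs, so it was not among the tested probes and its PABP1 level is a bound. For such probes the dim group is set to the lowest signal well above background on each array, or to the probe's own signal where that is higher. On that footing input was at least 2.61-fold and the GFP IP at least 1.38-fold higher than the PABP1 IP. In a fit without the background filter, over 41144 probes, the adjusted p from limma was 0.000251 for the PABP1 IP over input, 0.000492 between the IPs and 0.0158 for the GFP IP over input (measured difference −0.92). The median probe of this fit gave −0.77 in the last of these comparisons. The Atm value of −0.92 was thus near that of a typical probe and shows no fall particular to Atm.

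The other Atm probe, A_52_P400509, belongs to the cDNA clone AK048970 and did not follow the first against input. It read −4.37, −4.90 and −2.64 in the inputs, −5.66 and −4.56 in the PABP1 IPs and −2.63, −3.59 and −2.16 in the GFP IPs. The GFP IPs overlapped the widely spread inputs (1.18 ± 0.65; limma, adjusted p = 0.15). They lay above both PABP1 IPs, at least 2.33-fold higher (adjusted p = 0.0236), but that call ended without PABP1 IP replicate 1 (adjusted p = 0.143), GFP IP replicate 1 (0.0613) or GFP IP replicate 3 (0.0679), and with normexp (0.466).

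Trp53bp1 had the largest difference between the IPs of the 13 tested probes. Probe A_52_P464437 read 1.89, 1.80 and 1.50 in the inputs, −0.34 and −0.46 in the PABP1 IPs and 2.56, 2.75 and 2.65 in the GFP IPs. The groups did not overlap, and the order was GFP IP, input, PABP1 IP. The GFP IP was higher than input by 0.92 ± 0.14 (limma, adjusted p = 0.00111) and the PABP1 IP lower (−2.13 ± 0.16; adjusted p = 4.69e-05). Between the IPs the difference was 3.05 ± 0.16 (95% interval 2.68 to 3.43; adjusted p = 1.17e-05), at the 97.9th percentile of all tested probes. Slides 1 and 2 alone gave 0.91 and 1.11 for the GFP IP over input and 3.09 and 3.06 between the IPs. The call against input ended with the normexp background correction (0.70, adjusted p = 0.277), while the other 2 calls held there.

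The second Trp53bp1 probe, A_52_P364757, is dim and did not repeat the excess over input. It read −2.51, −1.73 and −2.88 in the inputs, −3.44 and −4.39 in the PABP1 IPs and −2.71, −2.37 and −2.15 in the GFP IPs. The GFP IP and input overlapped (−0.04 ± 0.36, 95% interval −0.89 to 0.81; limma, adjusted p = 0.926), and both lay above the PABP1 IPs, where the probe was not well above background. Input was at least 2.91-fold (adjusted p = 0.0129) and the GFP IP at least 2.83-fold (adjusted p = 0.0126) higher than the PABP1 IP, calls that ended without PABP1 IP replicate 2 (adjusted p = 0.0916 and 0.0858), within slide 1 (adjusted p = 0.0508 and 0.107) and with normexp (adjusted p = 0.53 and 0.592).

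Brca1, which promotes end resection and recombination, was low in the PABP1 IP at its bright probe, while its GFP IPs read like the inputs. Probe A_51_P475523 read 3.24, 3.31 and 2.93 in the inputs, 1.96 and 1.84 in the PABP1 IPs and 2.77, 3.22 and 3.00 in the GFP IPs. The GFP IPs and inputs overlapped, and the PABP1 IPs lay below both. The GFP IP over input gave −0.16 ± 0.16 (95% interval −0.55 to 0.23; limma, adjusted p = 0.417), a sign that turned under 3 other scalings. The PABP1 IP over input gave −1.26 ± 0.18 (adjusted p = 0.000847), and the GFP IP over the PABP1 IP gave 1.10 ± 0.18 (adjusted p = 0.00134). Within slides 1 and 2 the latter was 1.26 and 1.04. With normexp both calls ended (−0.88 and 0.65; adjusted p = 0.211 and 0.333).

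A dim Brca1 probe, A_52_P18267, was well above background on no input and 1 of 2 PABP1 IPs, and so was tested only because it was bright enough in the GFP IPs. It read −4.87, −4.90 and −3.94 in the inputs, −5.74 and −4.08 in the PABP1 IPs and −2.92, −3.83 and −2.39 in the GFP IPs. The GFP IPs were the highest arrays, at least 1.25-fold over input (limma, adjusted p = 0.0406). That call ended without the background filter (adjusted p = 0.0747), with normexp (0.966), without Input replicate 1 or 2 (0.112 each) and without GFP IP replicate 1 or 3 (0.102 and 0.125). The rise over the PABP1 IP (1.86 ± 0.60; adjusted p = 0.0265) ended without the filter (0.0543), with normexp (0.587), without PABP1 IP replicate 1 (1.04, adjusted p = 0.19) and without GFP IP replicate 1 or 3 (0.0667 and 0.0747).

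Brca2 fell strongly in both IPs at its bright probe. Probe A_51_P451106 read 3.63, 4.07 and 4.26 in the inputs, 1.37 and 1.53 in the PABP1 IPs and 2.36, 2.60 and 2.63 in the GFP IPs. The 3 groups were in separate ranges in the same order as for Prkdc and Rad50. The difference was −2.54 ± 0.21 in the PABP1 IP over input (limma, adjusted p = 6.46e-05), −1.46 ± 0.19 in the GFP IP over input (adjusted p = 0.000462) and 1.08 ± 0.21 between the IPs (adjusted p = 0.00262). Within slides 1 and 2 they were −2.48 and −2.73, −1.25 and −1.76, and 1.23 and 0.97. The call between the IPs ended with normexp (0.59, adjusted p = 0.388).

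The second Brca2 probe disagreed with the first on PABP1. A_52_P513394, well above background on all 8 arrays, read −2.28, −2.47 and −2.22 in the inputs, −2.25 and −2.39 in the PABP1 IPs and −3.45, −3.03 and −2.98 in the GFP IPs. The PABP1 IPs lay within the range of the inputs (0.01 ± 0.18, 95% interval −0.42 to 0.43; limma, adjusted p = 0.981), and the GFP IPs lay below both. The GFP IP was lower than input (−0.83 ± 0.16; adjusted p = 0.0033) and lower than the PABP1 IP (−0.83 ± 0.18; adjusted p = 0.00458). Both calls ended with median scaling (adjusted p = 0.223 and 0.153) and with normexp (0.83 and 0.981), the former within slide 1 (0.0555) and the latter within slide 2 (0.0524) and with scaling over detected probes (0.0879).

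**Figure D2:**
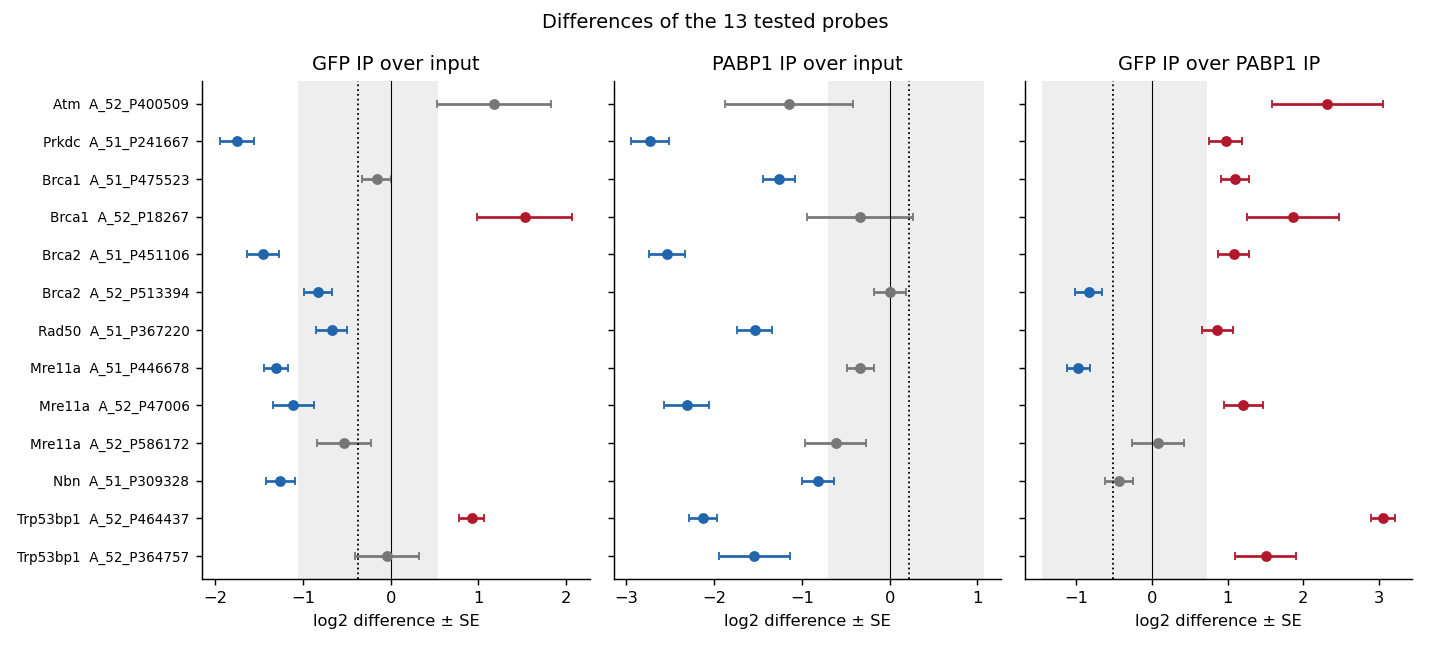
Differences of the 13 tested probes in the 3 comparisons, in log2 units, with limma's standard errors as bars; red marks probes called higher, blue lower and grey not past the threshold. The dotted line is the median of all tested probes and the grey band their middle range between quartiles. In the PABP1 IP over input 8 probes were called lower, where 25.9% of all tested probes were. In the GFP IP over the PABP1 IP 9 were called higher, where 26.6% of all tested probes were. The 9 include the dim probes of Atm, Brca1 and Trp53bp1, which passed the filter only through the GFP IP.

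Probes of 1 gene thus gave unlike values for several members. For the PABP1 IP over input, the 4 member genes with at least 2 tested probes had a median range between their probes of 1.45, against 0.88 over the 4598 such genes on the array; in the GFP IP over the PABP1 IP it was 1.73 against 0.68, and in the GFP IP over input 0.87 against 0.79. Probes of opposite sign occurred in 2 of 4 member genes for the GFP IP over input, 1 of 4 for the PABP1 IP and 2 of 4 between the IPs, where 32.6%, 31.0% and 28.3% of all such genes had them. With 1 probe per gene, the brightest, 5 of 8 members fell and 1 rose in the GFP IP (background over genes 43.4% and 21.2%), and 6 were lower and 0 higher in the PABP1 IP (25.3% and 34.3%). Between the IPs 6 were higher and 1 lower (23.6% and 47.6%). The 6 include Atm, whose probe passed the filter only through the GFP IP, so its excess there is no support for this count.

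**Figure D3:**
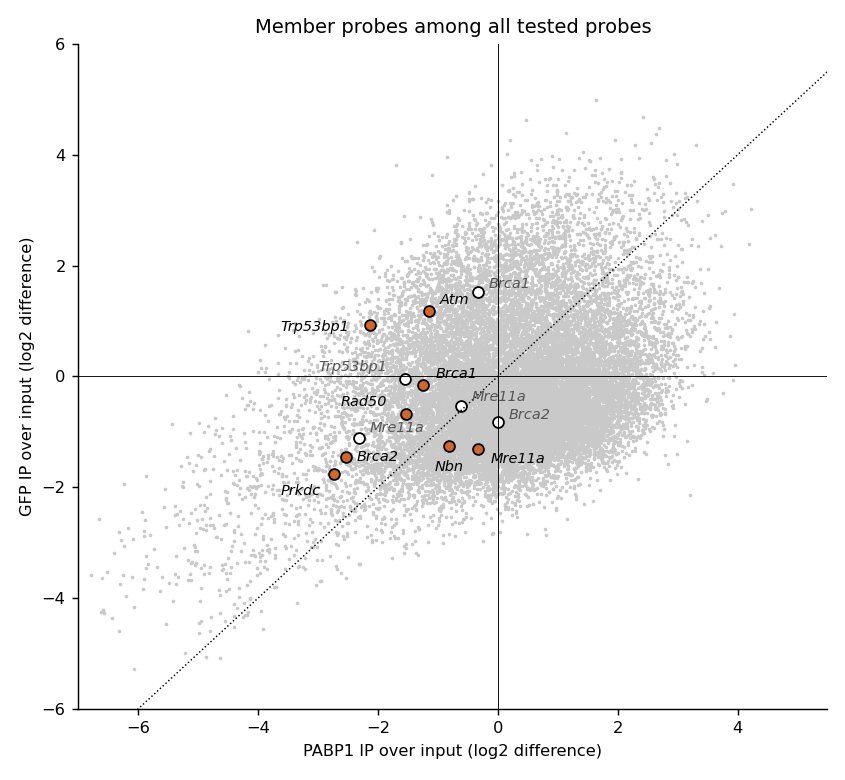
Difference of the GFP IP over input (vertical axis) against the PABP1 IP over input (horizontal axis), both in log2 units, for all 20625 tested probes (grey) and the 13 tested member probes (orange for a gene's brightest tested probe, white for its other probes). On the dotted line the 2 IPs are equal. Every tested member probe but 1 lies left of 0 on the horizontal axis, the exception being the dim Brca2 probe at 0.01, and the main Trp53bp1 probe (−2.13, 0.92) lies far above the dotted line. Both axes use the same inputs.

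For each member, the genes whose 8 array values lay nearest after centring were sought among all tested genes by root mean square (RMS) difference, with the brightest tested probe of each. Prkdc was nearest to Tnks1bp1 (RMS 0.103) and to Timeless (0.118), a replication fork protein. Brca1 was nearest to Tenm3 (0.0687) and Dcaf17 (0.0895), Brca2 to Huwe1 (0.136) and an unnamed probe (0.166), and Trp53bp1 to BC027816 (0.102) and Ammecr1l (0.119). Mre11a was nearest to Phyhip (0.0453) and Gsdmd (0.0522), Rad50 to Tax1bp1 (0.0783) and Zfyve26 (0.105), and Nbn to Xpnpep2 (0.0701) and Tmem131 (0.0703). The Atm clone probe had no close match, at 0.252 to NAP103155-1 and 0.350 to LOC675467, the array's own names. For scale, the median RMS difference to all tested genes ran from 0.737 for Mre11a to 1.55 for Trp53bp1.

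Other genes of these pathways were taken from 5 lists of 100 names, of which 98 were on the array and 91 were tested by their brightest probe. In the GFP IP over input 52 were lower and 19 higher (median −0.67, against −0.52 over all tested genes). Against input, 37 were lower in the PABP1 IP and 22 higher (median −0.33 against 0.24), and between the IPs 26 were higher and 32 lower (median −0.05 against −0.68). The shares lower in the GFP IP and in the PABP1 IP compare with 43.4% and 25.3% over all tested genes, and the calls are limma's at an adjusted p of 0.05.

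Genes of end resection and homologous recombination (31 of 33 tested) fell in 19 and rose in 4 cases in the GFP IP over input. Of all tested genes 43.4% fell and 21.2% rose there. In the PABP1 IP 9 fell and 9 rose (background 25.3% and 34.3%). The helicases Blm (−1.59 in the GFP IP, −2.05 in the PABP1 IP) and Brip1 (−1.70 and −2.09) fell most; a second Brip1 probe gave 0.57 in the GFP IP. Rpa2, a subunit of the complex that coats single-stranded DNA, rose by 2.81 in the GFP IP and was higher there than in the PABP1 IP by 1.90. Its partner Rpa3 rose by 3.53 in the PABP1 IP and was lower in the GFP IP than there (−2.30). Rad51c was well above background on no input, and was at least 2.99-fold higher in the GFP IP and at least 4.58-fold higher in the PABP1 IP. It was tested only through the IPs, and both calls ended with normexp (adjusted p = 0.668 and 0.723). Between the IPs 7 were higher and 12 lower (background 23.6% and 47.6%). Among the higher was Rbbp8 (1.68), which starts resection, and among the lower Sem1 (−2.23), a small partner of BRCA2. The calls for Brip1 in the GFP IP (adjusted p = 0.0636) and for Rbbp8 (0.0679) ended with normexp.

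In end joining (16 of 17 tested) 12 genes were lower and 1 was higher in the GFP IP over input, with a median of −1.06. Of all tested genes 43.4% were lower and 21.2% higher there, with a median of −0.52. Dclre1c, the nuclease Artemis that DNA-PKcs activates, gave −2.24 in the GFP IP, where it was well above background on 2 of 3 arrays, and −2.51 in the PABP1 IP, on 1 of 2; it was tested only through the inputs, where it is brightest, and both calls ended with normexp (adjusted p = 0.343 and 0.234). Aptx, which removes AMP from blocked ends, was lower in the GFP IP (−1.78). Xrcc4, the scaffold of the ligase, was the 1 gene higher in the GFP IP (1.30), and it gave 0.64 in the PABP1 IP, a call lost with scaling over detected probes (0.40, adjusted p = 0.123), without the filter (0.109), within slide 1 (0.138), with averaged probes (0.0638) and with the replicate block (0.0654). The PABP1 IP had 7 lower and 2 higher (background 25.3% and 34.3%). Among the lower was Xrcc5 (−1.20), a subunit of Ku. Among the higher was Paxx (1.57), a small end-joining factor that was tested only through the PABP1 IP, where it is brightest. Between the IPs 2 were higher, Parp1 (0.79) and Xrcc4 (0.66), and 9 lower, led by Paxx (−2.02) and Aptx (−1.65). Of all tested genes 23.6% were higher and 47.6% lower there. With normexp the calls ended for Paxx (adjusted p = 0.824 over input, 0.736 between the IPs), Xrcc5 (0.229), Parp1 (0.653) and Xrcc4 (0.0947 in the GFP IP, 0.667 in the PABP1 IP and 0.258 between the IPs). The Xrcc4 call between the IPs also ended without the filter (0.081) and within slide 2 (0.0768).

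Damage signalling and checkpoint genes (29 of 31 on the array tested) divided more evenly, with 11 higher and 13 lower in the GFP IP over input. The background there was 21.2% and 43.4% of all tested genes, so the lower share was near it and the higher share above it. Rad1, a subunit of the checkpoint clamp, rose in both IPs (3.14 in the GFP IP, 2.76 in the PABP1 IP), and Abraxas1, a scaffold of a BRCA1 complex, rose in the GFP IP (2.44). Timeless fell in both (−1.87 and −2.83), while its partner Tipin rose in the PABP1 IP (1.55). Rif1, which acts with TRP53BP1 at ends, had the largest fall in the PABP1 IP (−6.23), where 1 of 2 arrays was well above background, and a smaller one in the GFP IP (−1.95), where its other probe was higher (1.02); that other probe gave −1.36 in the PABP1 IP. Against input, 8 were higher and 12 lower in the PABP1 IP (background 34.3% and 25.3%). Between the IPs 12 were higher and 8 lower (background 23.6% and 47.6%). The higher were led by Rif1 (4.29) and the p53 regulator Mdm4 (2.68), the lower by Mad2l2 (−1.99) and Babam1 (−1.76). Other Mdm4 probes gave −0.08, 1.27 and 2.15 between the IPs.

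Of the Fanconi anaemia genes, which act on crosslinked DNA, 10 of 11 on the array were tested. The GFP IP over input had 6 lower and 3 higher (background 43.4% and 21.2%). Fanci (−1.92 in the GFP IP, −1.68 in the PABP1 IP) and Fanca (−1.95 and −1.94) fell, but a second Fanca probe gave 1.03 and 2.06. Fancg (0.92) and Ube2t (0.45) rose in the GFP IP, where the Fancg call ended within slide 2 (adjusted p = 0.0529) and the Ube2t call without the filter (0.0705) and within each slide (0.0596 and 0.0936). The PABP1 IP had 5 lower and 2 higher (background 25.3% and 34.3%). The 2 were Ube2t (0.40) and Fancl (0.56), the latter a call lost under the other scalings (limma, adjusted p = 0.101, 0.144 and 0.145). The Ube2t call in the PABP1 IP was lost with quantile normalization (0.13, adjusted p = 0.39), scaling over detected probes (0.17, 0.275), without the filter (0.153), within each slide (0.085 and 0.187) and with the replicate block (0.0749). Between the IPs Fancg (1.33) and Fancd2 (1.25) were higher and Fancl was lower (−1.45), where the background was 23.6% higher and 47.6% lower. With normexp the calls ended for Fancg (adjusted p = 0.272 over input, 0.124 between the IPs), Fancd2 (0.156), Ube2t (0.767 in the GFP IP, 0.439 in the PABP1 IP), and Fanci (0.0537) and Fancl (0.242) in the PABP1 IP.

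Of the kinases related to ATM and DNA-PKcs and their chaperone, 5 of 6 were tested. In the PABP1 IP over input 4 were lower and 1 was higher (background 25.3% and 34.3%). Trrap, a kinase-like scaffold protein, gave −3.56 there and −2.23 in the GFP IP, and 1.34 between the IPs. Smg1, a kinase of nonsense-mediated decay, gave −1.85 in the PABP1 IP and 2.10 between the IPs. Mtor was the 1 gene higher in the PABP1 IP (1.30), and lower in the GFP IP than there (−1.45). Its other probe, however, gave −1.40 in the PABP1 IP and 0.05 between the IPs. Telo2, a subunit of the chaperone, was lower in the GFP IP (−1.70) and gave −0.61 between the IPs, a call lost under the other scalings (adjusted p = 0.573, 0.0981 and 0.227). With normexp the calls ended for Smg1 in the PABP1 IP (adjusted p = 0.0573) and, between the IPs, for Trrap (0.181) and Telo2 (0.217).

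**Figure D4:**
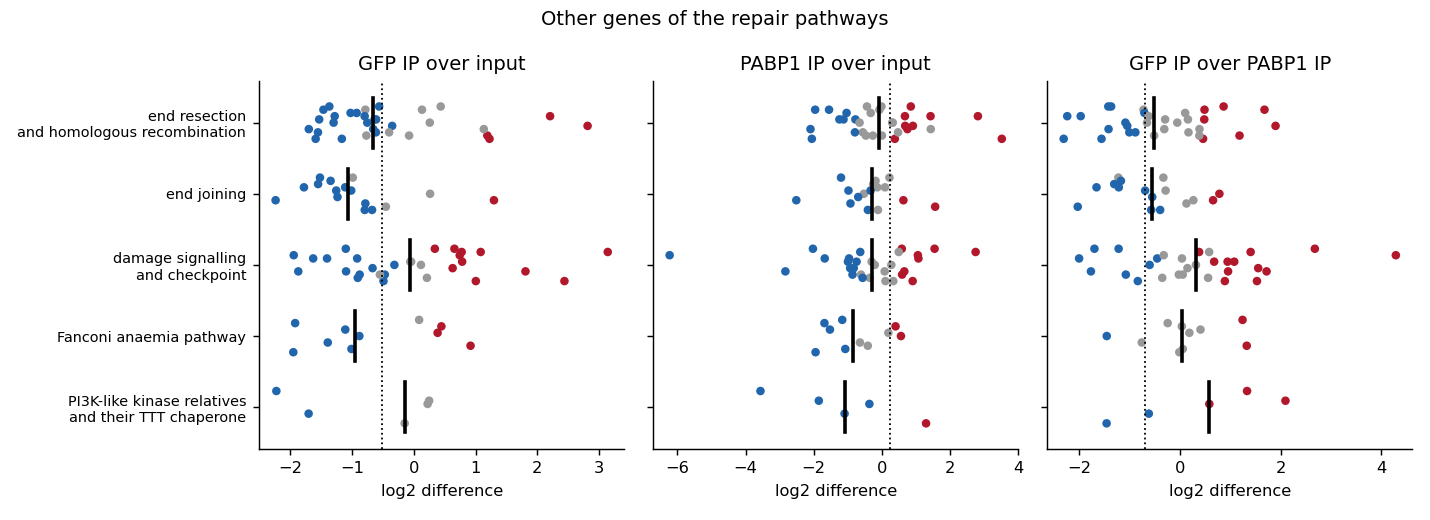
Differences of the tested genes of the 5 pathway lists (rows) in the 3 comparisons, in log2 units, 1 point per gene by its brightest probe; red marks genes called higher, blue lower and grey not past the threshold, the black bar is the list's median and the dotted line the median of all tested genes. End joining genes lie mostly left of 0 in the GFP IP over input (12 of 16 called lower), while damage signalling genes lie on both sides (11 higher, 13 lower of 29). Of all tested genes 21.2% were called higher and 43.4% lower there.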

How the data were processed

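The arrays (Agilent design 014868, 1 colour, Cy3) hold intensity values made by the authors, per the file headers, with Feature Extraction 9.1.3.1 (protocol GE1-v5_95_Feb07), which subtracts background. Flags that mark outlier spots and spots well above background were deposited beside the intensity and are other values. A further deposited file gives the authors' mean intensity of each group, with its scaling not stated in the labels or the file.

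Here the processed intensity was put on the log2 scale, less the 75th percentile of its own array (63.6 to 182 intensity units over 43379 spots). Control spots, outlier spots and 30 probes left without a value were dropped, and spots of a probe were averaged. A probe counted as well above background where at least 50% of its spots were flagged so, and it was tested if this held for all arrays of 1 or more groups (20625 of 41174 probes; 14696 of 27677 genes). The test was limma 3.58.1 (lmFit and eBayes over the 8 arrays, with 5 residual and 2.17 prior degrees of freedom) in R 4.3.3 with data.table (version 1.17.8). Plots used matplotlib 3.10.9 and Python 3.11.15. P-values are two-sided and adjusted by Benjamini-Hochberg over all tested probes or, for lists and markers, over all tested genes, at a threshold of 0.05. The code was tested on simulated data. The number of arrays limits the precision. The arrays lie on 2 slides; within-slide values come from fits of 4 arrays, in which a lone array of a group is assumed to vary like the other groups. The alternatives tried were other scalings and filters, the normexp background correction (offset 50), slide and replicate number as blocks, array weights and leaving out each array.

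List genes were matched to RefSeq names (assembly GRCm38.p6). Named are all member probes, up to 2 called genes of each list with the largest difference each way in each comparison, and the 2 genes nearest to each member. The members, lists and rules were chosen with earlier results of these data known. A planned description by protein length was not run, since no protein or probe sequences were used here.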

Additional observations from a re-analysis of the deposited data

How the results depend on the processing

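Direction and side of the threshold held in 647 of 744 values of member probe differences under the alternatives tried, and in 1015 of 1094 for the named pathway genes. The 744 include values from the authors' deposited table, which have no p-value. Those counted as held if they differed from the main value by less than the probe's standard deviation within groups, and 6 did not. The normexp background correction, which left 4.19% of all tested probes called higher and 5.52% lower in the GFP IP over input, moved most counts. It gave 0 member probes higher and 3 lower in the GFP IP over input, 4 lower for the PABP1 IP, and 1 higher and 1 lower between the IPs. Of all tested probes it left 11.3% higher and 4.69% lower for the PABP1 IP, and 7.84% and 18.6% between the IPs. Pathway genes called, of 91, fell to 17, 11 and 23 in the 3 comparisons, from 71, 59 and 58. Other counts moved as follows. The GFP IP over input had 1 member probe higher without a filter on dim probes and 1 with probes well above background on all 8 arrays. The shares of all probes higher in those fits were 10.4% and 25.2%. Between the IPs 1 was lower with median scaling, with scaling over detected probes and within slide 2, and 0 member genes were lower when a gene's probes were averaged. The causes were not tested. With 1 input or GFP IP array left out, 21% to 24% of all tested probes were higher in the GFP IP over input. In the same comparison 32.2% to 40.7% were lower. For the PABP1 IP over input 31.2% to 34.4% were higher and 23.1% to 25.9% lower, and between the IPs 24.1% to 27.2% and 38.3% to 45%. Leaving out 1 array at a time gave 1 to 3 member probes higher and 7 to 8 lower in the GFP IP over input, 0 higher and 7 to 9 lower for the PABP1 IP, and 7 to 9 higher and 2 to 3 lower between the IPs; called pathway genes ranged over 60 to 72, 48 to 57 and 48 to 59.

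The share of calls that were higher moved with scaling: over all tested probes it was 38.2%, 57.1% and 37.8% in the 3 comparisons, 64.3%, 60.6% and 52.0% with median scaling, 47.0%, 52.5% and 47.2% with quantile normalization, and 45.1%, 47.6% and 51.0% with scaling over detected probes, and the median of all probes in the GFP IP over input moved from −0.38 to 0.16, −0.15 and −0.21. With median scaling 29 of the 91 tested pathway genes were lower in that comparison, where 18.8% of all tested probes were.

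Signs turned mainly for probes near 0. In the GFP IP over input the bright Brca1 probe gave 0.37 with median scaling, 0.0068 with quantile normalization and 0.0036 with scaling over detected probes, and the dim Trp53bp1 probe gave 0.49, 0.27 and 0.12 there, 0.15 with slide as a block, 0.44 within slide 2 and −0.30 to 0.28 with 1 array left out; the Atm clone probe gave −0.010 with normexp. In the PABP1 IP over input the dim Brca2 probe gave −0.23 with scaling over detected probes, −0.20 with normexp, −0.17 within slide 2 and −0.067 to 0.076 with 1 array left out, and the dim Brca1 probe 0.0014 with quantile normalization and −1.17 to 0.49 with 1 array left out. Between the IPs Mre11a probe A_52_P586172 gave −0.11 within slide 2, −0.13 with array weights and −0.25 to 0.25 with 1 array left out, and the bright Nbn probe 0.020 with median scaling. Of called pathway genes, averaging a gene's probes turned Fanca (0.057) and Mtor (−0.050) in the PABP1 IP, and probes well above background on all 8 arrays turned Rif1 (1.02) in the GFP IP.

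Arrays with the same replicate number did not pair: their deviations correlated at 0.51 to 0.57 across probes where they shared a slide and at −0.71 to −0.24 where they did not. The replicate block gave 2 member probes higher and 7 lower in the GFP IP over input, 0 and 8 for the PABP1 IP, and 8 and 3 between the IPs. Slide as a block gave 2 and 7, 0 and 11, and 9 and 3, with shares of 27.5% and 46.2%, 42.5% and 31.1%, and 30% and 51.3%. In the authors' deposited table the log2 ratios over input of the GFP IP and the PABP1 IP were −1.29 and −2.64 for Prkdc, −0.19 and −1.42 for Rad50, −0.70 and −2.27 for the Mre11a clone, and −0.41 and −3.53 for the RefSeq and 1.14 and −1.74 for the clone probe of Atm. Dim probes limit the values for Atm and for the second probes of Brca1 and Trp53bp1.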

Other observations

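The authors' deposited table ties 3 further cDNA accessions to these genes that the per-array files list only by accession: AK038145 and AK037783 to Atr, and AK075660 to Trp53bp1. Each has 1 probe, and all 3 were well above background on 0 of 8 arrays, with processed intensities of 1.66 to 4.47 for Atr and 2.1 to 4.73 for Trp53bp1, so no level of Atr mRNA was measured by them.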
